A study of Mus musculus with 48 samples.

Results

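Broad H3K4me3 domains are stretches of chromatin that carry histone H3 trimethylated at lysine 4 far beyond the usual width of a promoter peak. They were taken here from the 3 WT H3K4me3 peak lists. One list came from skeletal stem cells, abbreviated SSC. The second came from bone, cartilage and stromal progenitors, abbreviated BCSP, and the other from a population labelled pre-bone, cartilage and stromal progenitors, here pBCSP. Peaks whose end minus start was 4000 bp or more were kept, and those that overlapped were merged. This gave 1875 domains of 38643 merged WT H3K4me3 regions. The members were thus chosen by WT peak width, so the WT widths below describe the choice and are not a finding.

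The cells were sorted from the limbs of C57BL/6 mice on postnatal day 3. WT mice were Ptipf/f and carry the floxed Ptip alleles without Cre, and KO mice were Ptipf/f;Col2a1-cre, in which the Col2a1 promoter drives Cre. Cells that never expressed the Cre would keep the gene. H3K4me3 was profiled by ChIP-seq in 1 library per population and genotype, so a difference in width between libraries has no replicate check and no test. RNA-seq had 2 libraries per population and genotype, 12 in all, with 15495915 to 22670899 counts each. The labels do not say whether replicate libraries came from separate animals, so p-values measure the spread between these libraries. Xist RNA, given below, differed between the WT replicates, so these were not technical copies of the same sample. In KO, same-numbered libraries deviated together across populations (correlations of 0.364 to 0.578). Their spread may be technical or between animals, which was not tested.

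H3K4me3 marks active promoters. Broad domains of the mark are known from many tissues to lie over genes that define a cell's identity and over highly transcribed genes. The mark is written by SET1 and MLL complexes, and PTIP, encoded by Paxip1, is an adaptor protein found with the MLL3 and MLL4 (KMT2C and KMT2D) complexes, whose main product is H3K4me1 at enhancers.

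The domains hold microRNA genes as well as protein-coding ones. RefSeq hairpins (build GRCm38.p6) fell in 35 domains, which held 38 of the 1005 hairpins in the table. Mature sequences are shown 5′ to 3′ for miR-140-3p, a microRNA of cartilage, and for 6 microRNAs that share a seed with one in another domain. The seed (bases 2 to 8) is in capitals, since it sets what they bind.
mmu-miR-140-3p: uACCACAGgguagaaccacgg
mmu-let-7i-5p: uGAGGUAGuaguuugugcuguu
mmu-let-7e-5p: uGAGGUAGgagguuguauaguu
mmu-miR-196a-5p: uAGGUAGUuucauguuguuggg
mmu-miR-196b-5p: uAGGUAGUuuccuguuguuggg
mmu-miR-125a-5p: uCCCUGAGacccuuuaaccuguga
mmu-miR-125b-5p: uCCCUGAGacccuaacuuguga
Let-7i and let-7e shared their seed, as did miR-196a and miR-196b, and miR-125a and miR-125b, and the members printed for each seed lie in different domains on different chromosomes. The seed of miR-125a and miR-125b was also that of miR-351-5p, which is not printed. Mir140, known as a cartilage microRNA, lies in chr8:107543909-107555476, a domain of 11568 bp within the annotated Wwp2 gene that contains no annotated gene start. The longest WT peak there was 11568 bp in SSC, 10167 bp in pBCSP and 9972 bp in BCSP, and 14505, 9281 and 9755 bp in KO. Mir199a-2 and Mir214 share a domain with the start of Dnm3os, their host transcript. Mir322 and Mir503 share one with C430049B03Rik.

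Promoter sequence was read for domain genes from RefSeq (GRCm38.p6), 250 bases before to 50 after the start. Foxc1 and Hoxa9 are shown because they start in the 2 longest domains, and Galnt15 because its domain and RNA were both low in KO. Capitals mark CG dinucleotides.
Foxc1: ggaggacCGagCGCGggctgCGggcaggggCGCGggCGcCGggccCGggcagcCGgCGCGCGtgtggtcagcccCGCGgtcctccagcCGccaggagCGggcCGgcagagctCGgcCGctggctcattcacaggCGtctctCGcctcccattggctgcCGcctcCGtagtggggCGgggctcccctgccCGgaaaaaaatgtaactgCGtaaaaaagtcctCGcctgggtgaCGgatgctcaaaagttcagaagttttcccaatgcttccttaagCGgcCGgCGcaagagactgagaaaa
Hoxa9: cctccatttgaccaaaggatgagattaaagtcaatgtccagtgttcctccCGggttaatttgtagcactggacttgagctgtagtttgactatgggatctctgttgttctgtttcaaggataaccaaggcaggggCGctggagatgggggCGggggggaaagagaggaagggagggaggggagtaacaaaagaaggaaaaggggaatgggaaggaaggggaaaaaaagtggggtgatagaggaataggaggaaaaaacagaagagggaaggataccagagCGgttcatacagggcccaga
Galnt15: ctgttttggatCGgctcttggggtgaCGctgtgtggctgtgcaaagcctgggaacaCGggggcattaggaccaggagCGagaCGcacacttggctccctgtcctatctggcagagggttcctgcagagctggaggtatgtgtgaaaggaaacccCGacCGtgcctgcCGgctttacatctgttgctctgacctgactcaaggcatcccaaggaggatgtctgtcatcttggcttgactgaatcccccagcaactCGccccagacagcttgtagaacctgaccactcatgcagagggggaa
The Foxc1 window (chr13:31806396-31806695, plus strand) holds 32 CG dinucleotides, the Hoxa9 window (chr6:52227321-52227620, minus strand) 4 and the Galnt15 window (chr14:32028853-32029152, plus strand) 9. Over 1840 promoters in broad domains the median was 25 CG dinucleotides, against 21 over 11543 promoters in other WT H3K4me3 regions and 13 over the 21263 promoters of the table. GGGCGG, searched on both strands, occurred in 73.5% of domain promoters, 66.0% of promoters in other regions and 46.2% of those in the table. TATAAA occurred in 8.10%, 5.93% and 12.6%. These are matches of letters and not known sites.

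Domain length ran from 4000 to 35786 bp with a median of 5113 bp. Just inside the minimum, 130 domains were within 100 bp of it, and 144 regions lay within 100 bp outside it, the longest at 3999 bp. SSC had 1570 peaks of this width among 33510, pBCSP 1140 among 28612 and BCSP 1506 among 32132. These few peaks held 17.8%, 15.2% and 17.9% of all bases under H3K4me3 peaks. Their median fold enrichment, the authors' value per peak, was 14.7, 16.2 and 17.4, against 5.46, 7.85 and 6.89 for narrower peaks.

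Of the 1875 domains, 988 (52.7%) were broad in all 3 WT populations, 349 (18.6%) in 2 and 538 (28.7%) in 1. SSC alone accounted for 299, BCSP alone for 203 and pBCSP alone for 36. Each of the 1875 overlapped a peak in each WT list, so a domain broad in 1 population had shorter peaks elsewhere but was not missing. When a domain counted as shared wherever peaks covered at least 50% of it, 1831 were shared by all 3 populations and 6 were found in 1. Domains broad in all 3 were longer, with a median of 5935.5 bp against 4288.5 bp for those broad in 1.

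**Figure D1:**
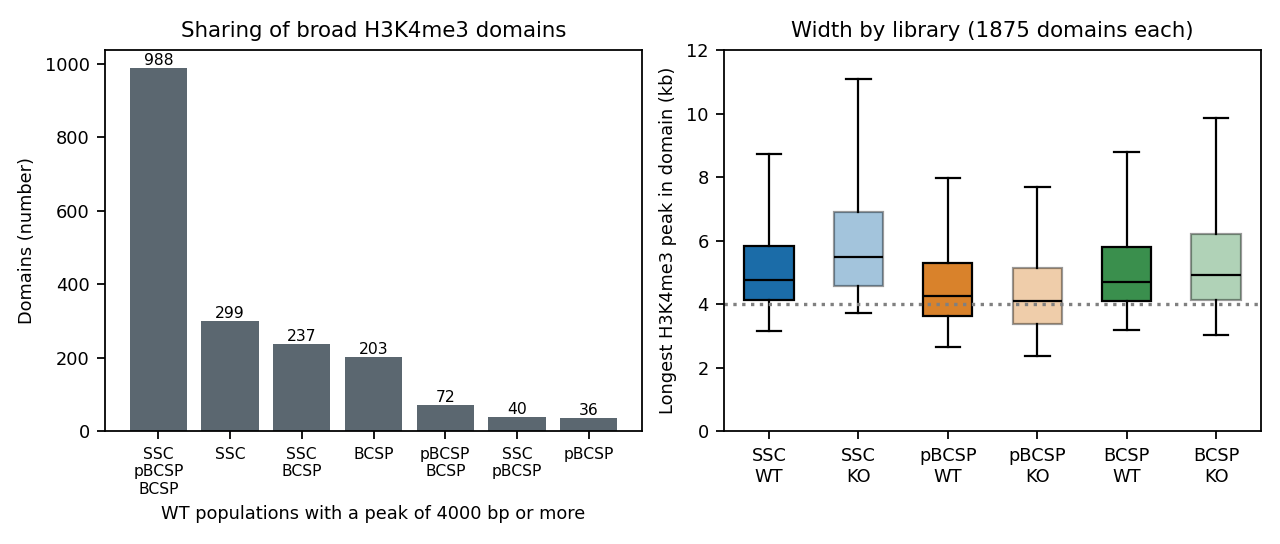
Left: number of domains (y axis) by the WT populations in which a peak reached 4000 bp. Right: longest H3K4me3 peak per domain (kb) in the 6 libraries; boxes show quartiles and median, whiskers the 5th and 95th percentiles, and the dotted line the minimum of 4000 bp. The 988 domains broad in all 3 populations form the tallest bar, and the SSC KO median of 5474 bp is above the SSC WT median of 4751 bp.

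The longest domain, chr6:52200110-52235895, spanned the starts of Hoxa3, Hoxa5, Hoxa6, Hoxa7, Hoxa9 and Hoxa10, homeobox genes that pattern the limb, together with Mir196b. One unbroken peak of 35786 bp covered it in WT SSC, whereas the longest single peak was 15688 bp in pBCSP and 20028 bp in BCSP, where 4 and 2 peaks together covered 31295 and 33917 bp. Next came Foxc1, a forkhead regulator of skeletal mesenchyme, with peaks of 22093, 13229 and 12719 bp in SSC, pBCSP and BCSP. Neat1, a nuclear long noncoding RNA that builds paraspeckles, had 17743, 15704 and 20437 bp. Nfib had 10205, 14826 and 18012 bp, and Lmna, which encodes the A-type lamins, 9362, 16347 and 16024 bp. Trps1, a GATA-type repressor active in growth plate cartilage, differed least among these, with 15706, 15800 and 15248 bp. The domain at Gm5563 reached 15793 bp and that at Smad7, an inhibitory SMAD, 14616 bp, both in BCSP. A pair of the 10 longest domains held no annotated start. One, chr13:63238980-63256359, lies within the annotated Aopep gene, and the other, chr15:76193055-76209765, within Plec.

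Broad domains were mostly promoter domains that ran into the gene. An annotated start of a protein-coding or lncRNA gene lay in 1718 of them (91.6%), against 33.9% of the other WT regions. A coding start lay in 1661 (88.6%), and 230 held starts of 2 or more coding genes. In the 962 domains with 1 start of known strand, the mark reached a median of 1222.5 bp upstream and 3832 bp downstream, and 902 (93.8%) were longer downstream. Other WT regions with 1 start reached 642 bp upstream and 1269 bp downstream, and 87.7% of them were longer downstream. Of the 157 domains without a start, 112 lay inside an annotated gene.

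RNA of these genes was found in almost every WT library. Of 1869 coding genes with a start in a domain and a row of counts, 93.0% had at least 1 CPM (counts scaled to library size) in all 6 WT RNA libraries. The share was 75.4% for genes in other WT H3K4me3 regions and 6.09% for genes in neither.

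The gene lists differed in how many members started in a domain. Over all 21887 coding genes of the annotation, 8.64% started in a broad domain. Of the 63 limb and mesenchyme transcription factors listed, 43 did, and 31 of those domains were broad in all 3 populations. They included Prrx1, a limb bud regulator, with WT peaks of 7403, 6928 and 7711 bp, and Twist1, a mesenchymal regulator, with 4914, 5383 and 7644 bp. Hox genes had 25 of 39 members in 16 domains. Among the 28 chondrocyte genes, 22 started in a domain, as did 22 of 28 cytoskeleton, cell cycle and housekeeping genes. Sox9, the master regulator of cartilage, had peaks of 8791, 8579 and 8817 bp, and its partner Sox6 had 13424, 11633 and 12337 bp. Col2a1, the main cartilage collagen, had 11709, 9604 and 6922 bp.

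The BMP and TGF-beta list had 26 of 38 members in domains, among them the ligand Bmp4 (6020, 6075 and 6040 bp), the secreted inhibitor Nog (5801, 5619 and 5724 bp) and the target gene Id2 (9031, 9005 and 9061 bp). In the hedgehog, FGF and Notch list it was 20 of 33, with the receptor Ptch1 at 8533, 7193 and 7279 bp and the Notch target Hes1 at 8456, 8459 and 8560 bp. For Wnt it was 15 of 33, among them the feedback inhibitor Axin2 (5626, 5872 and 6854 bp). Immediate early genes, induced within minutes of a stimulus such as cell isolation, had 24 of 27 members in domains, for example Fos with 8177, 6930 and 7384 bp. Glycolysis and hypoxia genes had 17 of 33 and osteoblast genes 6 of 14. Regulators of other lineages (leukocyte, endothelial, muscle and neural) had 5 of 29.

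**Figure D2:**
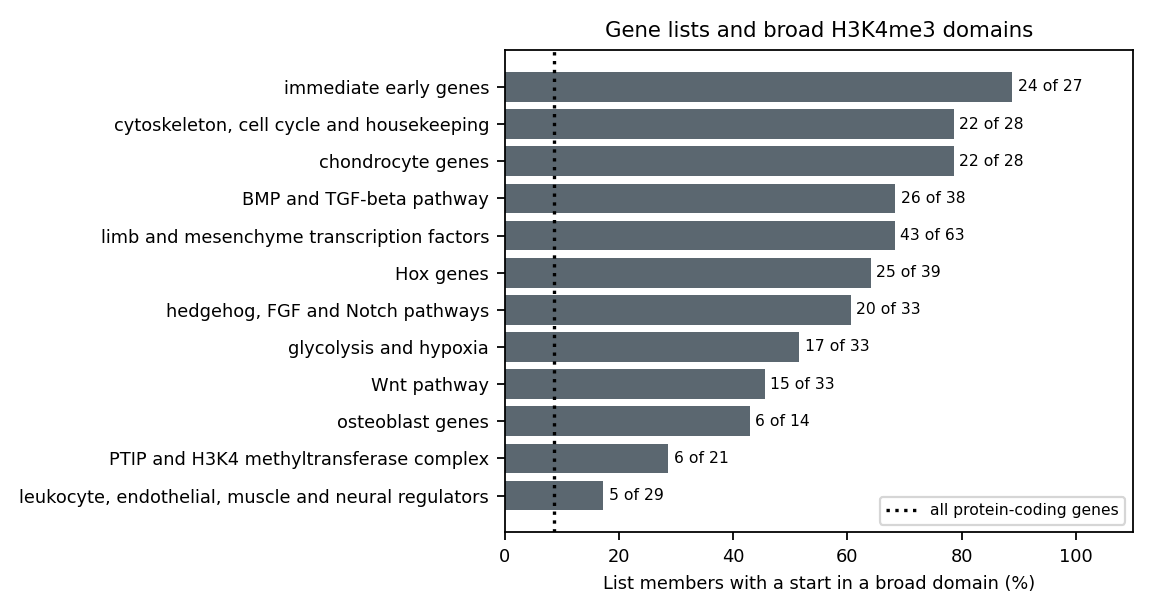
Percent of each gene list (x axis) whose members start in a broad WT domain, with counts beside the bars. The dotted line marks the 8.64% of all protein-coding genes; the immediate early genes, with 24 of 27, have the longest bar and the regulators of other lineages, with 5 of 29, the shortest.

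Defining markers of the labelled cells were present in the RNA. Sox9, Col2a1, Acan, Prrx1, Pdgfra and Runx2 had counts in all 12 RNA libraries, and each starts in a broad domain. Other lists were summed per library. Osteoclast markers (Ctsk and Acp5) stood at 97.1 to 292 CPM in WT and 42.4 to 121 in KO. Ctsk made up most of that sum, while Acp5 stood at 6.74 to 13.2 in WT and 0 to 11.9 in KO. Erythroid markers stood at 18.6 to 197 and 1.89 to 27.4. Endothelial markers stood at 3.88 to 32.7 CPM in WT and 0 to 15.9 in KO. Muscle markers stood at 3.88 to 19.1 and 13.7 to 117, mostly Tnni2, while Pax7 was at 0 in 10 libraries and Myod1 in 8. Leukocyte markers stood at 1.43 to 7.92 and 2.95 to 24.4. Laptm5 alone gave 24.4 CPM of the highest sum, in SSC KO replicate 2, where Ptprc, Spi1, Tyrobp and Cd52 were at 0. Surface antigens (Itgav, Cd200, Eng, Thy1 and Enpep) summed to 133 to 379 CPM in WT and 80.2 to 347 in KO. This sum mixes unlike members: Thy1 was at 0 in 4 libraries and Enpep in 2. Cd200 was at 289 and 198 CPM in WT SSC, 27.7 and 25.7 in WT pBCSP and 132 and 75.2 in WT BCSP. Eng was at 27.8 and 25.1, 29.3 and 34.3, and 168 and 127 CPM. The part of these other cells in the results was not tested. SSC KO replicate 2 stood apart, with 13987 genes with a read against 20965 to 23831 in the other 11 libraries. Paxip1 was at 7.25 to 14.6 CPM in WT and 0 to 3.48 in KO.

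Width differences between WT populations went with RNA. Domains broad in BCSP alone held genes with more RNA in WT BCSP than in WT SSC: the median log2 ratio over 148 domains with 1 tested gene was 0.399, and 105 were above 0. Domains broad in SSC alone had a median of -0.276, with 148 of 203 below 0, and the 773 broad in all 3 a median of -0.194. Across 1398 domains with 1 tested gene, the difference in longest peak between BCSP and SSC had a Spearman rho of 0.404 with the log2 RNA ratio. It was 0.319 for pBCSP against SSC and 0.392 for BCSP against pBCSP. These are descriptions across domains that share the same libraries and are not independent replicates.

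Tested gene by gene with edgeR's quasi-likelihood test on 12 libraries, none of the 2000 tested domain genes differed between WT BCSP and WT SSC at an adjusted p below 0.05 (Benjamini-Hochberg over 17494 genes). Unadjusted, 140 had p below 0.05 (7.0%, against 3.48% of all genes), and DESeq2 called 15 higher and 5 lower. For pBCSP against SSC edgeR called 0, with 48 unadjusted (2.40%, against 1.89%), and DESeq2 called 0 higher and 3 lower. For BCSP against pBCSP edgeR called 0, with 89 unadjusted (4.45%, against 2.62%), and DESeq2 called 2 higher and 4 lower. Over all 17494 genes DESeq2 called 67 higher and 10 lower, 2 and 36, and 20 and 9, in the order given.

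Same-numbered libraries of 1 genotype deviated together (correlations of 0.364 to 0.578 over the population pairs). Xist, an X-linked noncoding RNA made where an X chromosome is silenced, shows this number directly: WT replicate 1 libraries had 9.74, 13.0 and 14.4 CPM and all WT replicate 2 libraries 0. The mix of sexes thus differed between the WT replicates, and the replicate number carries that difference. Whether the mix also differed between KO and WT was not tested. A fit on the 6 WT libraries with the replicate number as a block, chosen after the data were seen, called 213 of 1976 domain genes higher in BCSP than in SSC (10.8%, against 7.65% of 16264 genes) and 270 lower (13.7%, against 5.32%). For pBCSP against SSC it called 94 higher (4.76%, against 2.55%) and 93 lower (4.71%, against 3.58%). For BCSP against pBCSP it called 186 higher (9.41%, against 7.48%) and 216 lower (10.9%, against 3.96%).

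Split by width, genes of domains broad in BCSP alone were called higher in BCSP than in SSC in 73 of 208 cases (35.1%) and lower in 5 (2.40%). Genes of domains broad in SSC alone were called higher in 11 of 327 (3.36%) and lower in 44 (13.5%), close to the 13.7% of all domain genes. For domains broad in all 3 it was 92 of 1062 (8.66%) and 168 (15.8%), so the shares of lower genes did not set the SSC-alone domains apart. Tmeff2, a transmembrane protein, had peaks of 2204 bp in WT SSC, 2117 bp in pBCSP and 4144 bp in BCSP. Its RNA was 4.15 and 6.92 CPM in SSC, 20.8 and 15.8 in pBCSP and 78.0 and 67.7 in BCSP, without overlap, and rose by 3.75 ± 0.263 (SE, log2) from SSC to BCSP (adjusted p = 1.27e-06, edgeR with the block). Fgf7, an FGF ligand of mesenchyme, had peaks of 1811, 2704 and 5515 bp. Its RNA was 1.96 and 1.85 CPM in SSC, 5.74 and 17.0 in pBCSP and 15.1 and 33.1 in BCSP, higher in BCSP than in SSC by 3.57 ± 0.353 (log2, adjusted p = 1.98e-05, edgeR with the block). S1pr3, a receptor for sphingosine-1-phosphate, had peaks of 1833, 1206 and 4803 bp. Its RNA was 180 and 269 CPM in SSC, 26.4 and 40.2 in pBCSP and 153 and 344 in BCSP, so SSC and BCSP overlapped although their widths differed.

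In the other direction, Pou3f1, a POU-domain factor known from Schwann cells, had peaks of 4563, 1587 and 3682 bp and RNA of 8.93 and 8.12 CPM in SSC, 0.267 and 0.486 in pBCSP and 0.641 and 1.85 in BCSP. It differed by -4.56 ± 0.532 (log2) from SSC to pBCSP (adjusted p = 0.000169, edgeR with the block). Sox2, also made by Schwann cell precursors, had peaks of 5092, 1939 and 3596 bp and RNA of 2.54 and 6.33 CPM in SSC and 0.178 to 1.57 in the other 4 WT libraries. Gdf5, a joint-forming growth factor, had peaks of 5359, 3681 and 4104 bp. Its RNA was 31.4 and 35.2 CPM in SSC, 54.8 and 45.8 in pBCSP and 12.3 and 10.9 in BCSP. Gdf5 RNA was thus highest in pBCSP, where its peak was shortest. The log2 difference from pBCSP to BCSP was -2.08 ± 0.193 (adjusted p = 2.89e-05, edgeR with the block). Pitx1, which specifies hindlimb, was as wide in all 3 lists (7032, 7533 and 7130 bp), while its RNA fell from 65.1 and 137 CPM in pBCSP to 8.93 and 37.8 in BCSP (log2 -2.30 ± 0.224, adjusted p = 3.69e-05, edgeR with the block).

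In KO the domains stayed in place. A KO peak overlapped 1875 of them in SSC, 1871 in pBCSP and 1874 in BCSP, and of those broad in WT 94.1% stayed broad in SSC (1472 of 1564), 76.8% in pBCSP (873 of 1136) and 89.5% in BCSP (1342 of 1500). Of those narrower than the minimum in WT, 82.3% were broad in KO in SSC (256 of 311), 19.5% in pBCSP (144 of 739) and 39.5% in BCSP (148 of 375). Domains that were broad in no KO list numbered 113, and 1 of these had been broad in all 3 WT populations. The direction of the width difference depended on the population. In SSC, KO peaks covered fewer bases of the domain in 32.4% of domains (31.0% of all WT regions), in pBCSP in 65.5% (67.7%) and in BCSP in 42.2% (36.8%). More bases were covered in 55.3%, 34.1% and 49.5% of domains, and in 59.0%, 31.8% and 53.6% of all WT regions. The median longest peak was 490 bp longer in KO in SSC, 136 bp shorter in pBCSP (-136) and 173 bp longer in BCSP.

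By covered bases, 5 domains in SSC, 79 in pBCSP and 27 in BCSP were narrower by 1.5-fold or more (0.267%, 4.21% and 1.44%), against 10.2%, 24.9% and 10.7% of all WT regions. Wider by that much were 48, 18 and 4 (2.56%, 0.960% and 0.213%), against 15.9%, 6.43% and 10.8%. By longest peak, narrower domains numbered 11, 120 and 62 (background 8.26%, 24.4% and 9.79%) and wider ones 256, 61 and 78 (background 32.7%, 8.48% and 22.7%). A given fold is a larger number of bases in a domain than in a typical region, and cover within a domain cannot exceed its WT length, so these shares are a description and not a comparison.

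Shares by direction lay near those of all regions, and the lists as wholes differed in the same direction. SSC KO had 42399 peaks over 66.54 Mb against 33510 over 49.42 Mb in WT, BCSP KO 38500 over 57.67 Mb against 32132 over 47.53 Mb, and pBCSP KO 25468 over 38.79 Mb against 28612 over 41.88 Mb. The shares also depended on which lists the domains were chosen in. With domains chosen in the KO lists by the same rule (2671 domains, of which 918 overlapped none of the WT set), KO covered fewer bases in 4.39% of domains in SSC, 58.1% in pBCSP and 26.5% in BCSP. With domains chosen in the other 2 WT populations it was 10.7% in SSC and 32.9% in BCSP.

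**Figure D3:**
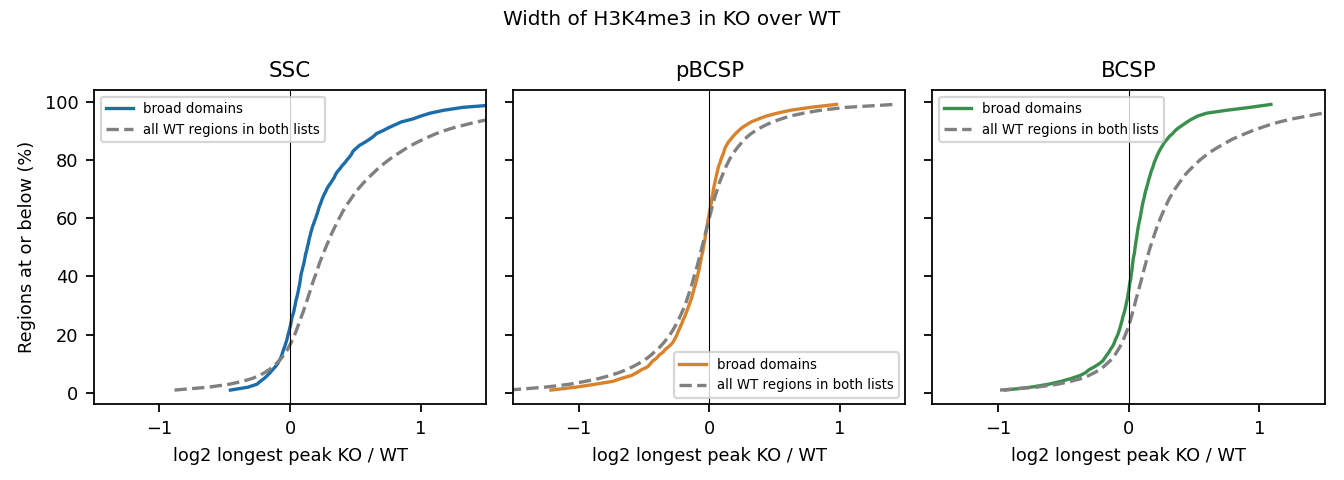
Cumulative percent of regions (y axis) by the log2 ratio of the longest KO peak to the longest WT peak (x axis), in 1 library per genotype; solid lines are broad domains and dashed lines all WT regions with a peak in both lists. The SSC and BCSP curves lie to the right of 0 for most regions (77.4% and 65.0% of domains longer in KO, against 79.7% and 72.7% of all regions), and the pBCSP curve to the left (38.2%, against 35.5%).

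Domains whose 3 KO libraries all covered fewer bases than the 3 WT libraries numbered 19 (1.01%, against 0.600% of all WT regions). One was Galnt15, which encodes an enzyme that starts mucin-type O-glycans. WT peaks covered 4529 bp in SSC, 4764 bp in pBCSP and 4017 bp in BCSP of its domain chr14:32028476-32033335, and KO peaks 1193, 755 and 1554 bp. Neat1 was covered over 19860, 17598 and 20437 bp in WT and 15961, 12375 and 15993 bp in KO. Of the glycolysis and hypoxia list they hold Eno1 (5547, 6032 and 5554 bp in WT; 5399, 3403 and 4499 bp in KO), the glucose transporter gene Slc2a1 (5125, 5272 and 4517 bp; 4465, 3538 and 3941 bp), Aldoa and Bnip3. The remaining domains start Higd1a, Ddit4, Rrs1 with Adhfe1, Adss, Npm1, Mllt6, 2610035D17Rik, Notum, Etv5, Surf6, Taf4, Chsy1 and Xist. The cover of the Xist domain can also differ with the mix of sexes, which was not tested. These 19 were chosen for their width difference. By longest peak the count was 17 (0.907%, against 0.424%). Without the SSC libraries the count by covered bases was 258 of 1875, against 3167 of 38643 WT regions (8.20%).

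Domains whose 3 KO libraries all covered more bases than the 3 WT libraries numbered 25 (1.33%, against 2.05% of all regions), and 132 by longest peak (7.04%, against 6.86%). Without the SSC libraries 140 of 1875 domains were above by covered bases, against 2599 of 38643 regions (6.73%). The 25 include the patterning genes Sox4, Sox11, Osr2, Bmp4, Foxp1, Nfix and Rbpj and the matrix and adhesion genes Tnc and Cdh11. Cover within a domain cannot exceed its WT length, so such gains are small by construction: Bmp4 was covered over 6020, 6075 and 6040 bp in WT and 6144, 6094 and 6144 bp in KO, while Cdh11 had 5787, 5951 and 6903 bp and 7047, 6958 and 7002 bp.

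Averaged over populations, the domains with the largest gain in cover were those of Col1a1, Ebf3, Vim, Nfib and Cd44. Each was wider in WT BCSP than in WT SSC. Cover cannot exceed the WT length, so a large gain needs a domain that is narrower in some WT population than in another. The WT difference at these domains thus follows from how they were chosen and is not a finding. Col1a1, the main bone collagen, had a longest peak of 4229 bp in WT SSC, 10571 bp in pBCSP and 13615 bp in BCSP, and 15101, 16983 and 17472 bp in KO. For Cd44, a hyaluronan receptor, it was 4090, 4207 and 7686 bp in WT and 8038, 6128 and 8711 bp in KO. Vim, the mesenchymal intermediate filament gene, had 5322, 5482 and 9183 bp in WT and 9596, 8815 and 10722 bp in KO. The KO SSC domains of these genes were thus as long as, or longer than, those of WT BCSP. These domains were chosen for their gain in KO, and 79.7% of all WT regions had a longer peak in SSC KO. The KO lengths are thus a description and not a finding. The largest losses were at Neat1, Galnt15, Alx1, Col2a1 and Ncmap. Col2a1 was covered over 11709, 9604 and 8548 bp in WT and 10832, 5413 and 7843 bp in KO, and Ncmap over 5480, 3790 and 3286 bp and 4709, 294 and 1968 bp.

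**Figure D4:**
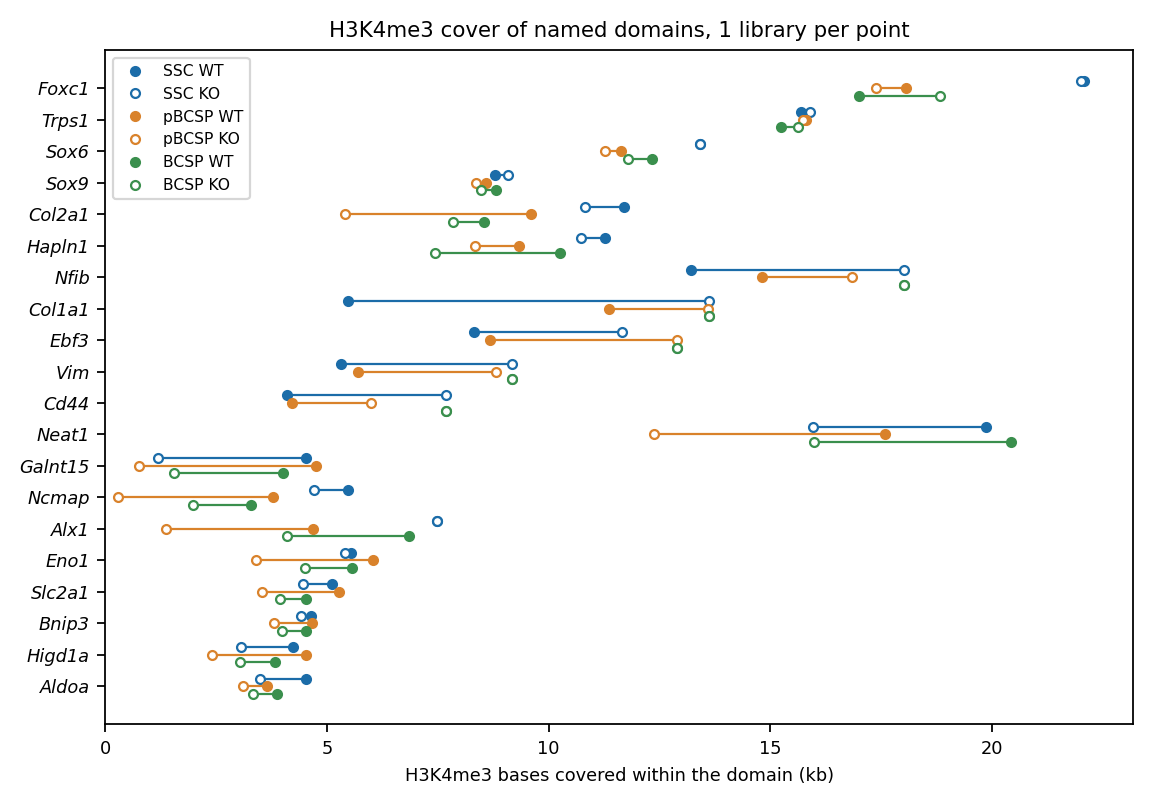
H3K4me3 bases covered within each named domain (x axis, kb), 1 library per point; filled points are WT and open points KO, joined by a line within a population. Galnt15, Neat1, Eno1, Slc2a1, Bnip3, Higd1a and Aldoa have every open point left of every filled one, whereas Col1a1, Ebf3, Vim and Cd44 have the open SSC and pBCSP points on the right.

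Domains broad in SSC alone included Hoxc6, Rhoc and Isl2. The Hoxc6 domain had a longest peak of 7775, 3333 and 3582 bp in WT and 3644, 3365 and 7943 bp in KO. Where the longest peak was short, the domain was split into 2 peaks. Together its peaks covered 7775, 6165 and 6498 bp in WT and 6366, 4267 and 7775 bp in KO. Rhoc had longest peaks of 8027, 3838 and 3962 bp in WT and 7573, 3668 and 4024 bp in KO. Its domain was split into 2 or 3 peaks in pBCSP and BCSP. Cover was 8027, 5778 and 6218 bp in WT and 7305, 5738 and 6440 bp in KO.

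RNA of domain genes was compared between KO and WT as the mean effect over the 3 populations, with edgeR's quasi-likelihood test on all 12 libraries. The test treated these libraries as independent, although same-numbered libraries of 1 genotype deviated together (correlations of 0.364 to 0.578). Its p-values can thus be too small. Of 2000 tested domain genes, 37 rose (1.85%, against 0.966% of 17494 genes) and 8 fell (0.40%, against 0.206%) at an adjusted p below 0.05. Unadjusted, 474 had p below 0.05, where 19.6% of all genes did. The median log2 change was -0.240 over domain genes and -0.0921 over all genes. DESeq2 called 128 higher and 110 lower, against 1051 and 642 of all 17494 genes, so the split between directions depends on the tool. Single libraries moved the count: it was 0 when any 1 of 8 libraries was left out (each of the 6 WT libraries, and replicate 2 of pBCSP KO or of BCSP KO). Leaving out replicate 1 of the KO populations gave 786 in SSC (205 higher and 581 lower, against 37 and 8 with all libraries), 7 in pBCSP and 84 in BCSP, and leaving out replicate 2 of SSC KO gave 46. In bulk RNA, fewer cells of a type and less RNA per cell cannot be told apart.

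Of the 17 glycolysis and hypoxia genes in domains, 6 rose and none fell. Eno1, the glycolytic enolase, was at 1906 and 1168 CPM in WT SSC, 1968 and 1340 in WT pBCSP and 1136 and 1097 in WT BCSP, and at 3423 and 5288, 4776 and 4849, and 3572 and 6189 CPM in KO. All 6 KO libraries were above all 6 WT libraries, and the log2 change was 1.72 ± 0.227 (SE; adjusted p = 0.0266, edgeR). P4ha1, a collagen prolyl hydroxylase subunit induced by low oxygen, ranged from 247 to 386 CPM in WT (median 336) and from 803 to 1107 in KO (median 904), again without overlap, with a log2 change of 1.57 ± 0.143 (adjusted p = 0.0206, edgeR). Pgk1 (1.63 ± 0.225), Pkm (1.36 ± 0.172), Aldoa (1.23 ± 0.189) and Gapdh (1.05 ± 0.173) completed the group, with adjusted p from 0.0261 to 0.0366 (edgeR) and no overlap between genotypes. Bnip3 ranged from 281 to 602 CPM in WT and 608 to 2706 in KO, which did not pass (log2 1.88 ± 0.398, adjusted p = 0.0587, edgeR), nor did Slc2a1 (0.67 ± 0.206, adjusted p = 0.135, edgeR). Fam162a and Ndufa4l2, also known as hypoxia targets, rose by 2.65 ± 0.356 and 2.36 ± 0.289 (adjusted p = 0.0266 and 0.0244, edgeR).

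H3K4me3 cover at these genes went both ways. KO peaks covered fewer bases than WT peaks at 15 of the 17 domains in pBCSP, 12 in BCSP and 8 in SSC, where 65.5%, 42.2% and 32.4% of all broad domains did. More bases were covered at 2, 3 and 9 of them. P4ha1 was covered over 5076, 5217 and 4895 bp in WT and 5409, 4524 and 5383 bp in KO. At 6 of the 17, KO covered fewer bases than WT in all 3 populations, against 12.6% of broad domains and 5.06% of all WT regions, and none of the 17 had more bases in all 3. The Pkm domain was covered over 6309, 6377 and 6173 bp in WT and 6323, 5157 and 5641 bp in KO. The lists were drawn up with earlier results of these data known, so these counts are a description.

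Of the 22 chondrocyte genes in domains, 9 rose and 1 fell. The 9 were Col9a1, Col9a2, Col9a3 and Col11a2, which encode minor cartilage collagens, Matn3, Hapln1 and Epyc, which encode cartilage matrix proteins, and Cnmd and Snorc, which encode chondrocyte membrane proteins. Hapln1, the link protein of aggrecan, ranged from 615 to 1825 CPM in WT (median 1194) and from 1616 to 2788 in KO (median 2275). The ranges overlapped, and the log2 change was 1.01 ± 0.194 (adjusted p = 0.049, edgeR). Its domain was covered over 11278, 9330 and 10251 bp in WT and 10738, 8336 and 7443 bp in KO. Col9a3 ranged from 2131 to 6822 CPM in WT and 7135 to 11830 in KO, with a log2 change of 1.47 ± 0.219 (adjusted p = 0.0312, edgeR). Epyc, a small proteoglycan, changed most among them, from 178 to 549 CPM in WT to 988 to 4201 in KO (log2 2.87 ± 0.454, adjusted p = 0.0346, edgeR). Prg4, the joint lubricant lubricin, fell in each population, from 1450 and 1735 CPM to 752 and 707 in SSC, from 1940 and 2193 to 1031 and 988 in pBCSP and from 611 and 457 to 237 and 252 in BCSP (log2 -1.10 ± 0.142, adjusted p = 0.0266, edgeR). Within each population its KO libraries were below the WT ones, although the ranges over all populations overlapped. Col2a1, Sox9, Sox6 and Acan did not pass, with log2 values of -0.07 ± 0.237, 0.51 ± 0.218, 0.76 ± 0.172 and 1.14 ± 0.249.

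Galnt15 had the lowest log2 value among the 8 genes that fell. Its RNA was 12.4 and 12.1 CPM in WT SSC, 10.1 and 9.35 in WT pBCSP and 9.07 and 5.28 in WT BCSP, and 0.97 and 0 in KO SSC, 0.315 and 0 in KO pBCSP and 0.369 and 0.122 in KO BCSP. The genotypes did not overlap, and the log2 change was -5.16 ± 0.943 (adjusted p = 0.0472, edgeR). Cyp1b1, a cytochrome P450, fell by 5.06 ± 0.938 (adjusted p = 0.0483, edgeR), from 2.08 to 40.1 CPM in WT to 0 to 3.48 in KO, with overlapping ranges. The Cyp1b1 domain was longer in KO, with longest peaks of 3169, 3708 and 5527 bp in WT and 5815, 4913 and 5876 bp in KO. Glul, the glutamine synthetase gene, Lifr, the receptor for leukaemia inhibitory factor, Mt1, a metallothionein, Shisa2, an inhibitor of Wnt and FGF signalling, and Col5a1, a fibrillar collagen, fell by 1.5 ± 0.265, 1.49 ± 0.274, 1.15 ± 0.211, 0.977 ± 0.189 and 0.938 ± 0.179 on the log2 scale.

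The genes with the largest log2 rise were Kctd4 and the pair Pou3f3 and Pantr1, which share 1 domain. Pou3f3, a POU-domain transcription factor, ranged from 2.13 to 6.57 CPM in WT and 8.43 to 92.8 in KO (log2 3.26 ± 0.577, adjusted p = 0.0443, edgeR). Replicate 2 was the higher KO library in each population (92.8, 63.4 and 54.4 CPM, against 21.9, 17.0 and 8.43). Kctd4 had the same pattern, with 247, 249 and 275 CPM in KO replicate 2, 55.5, 45.8 and 61.8 in KO replicate 1 and 5.68 to 25.8 in WT. C430049B03Rik, the transcript that shares its domain with Mir322 and Mir503, rose by 1.69 ± 0.321 (adjusted p = 0.049, edgeR). One Wnt list member, the secreted Wnt antagonist Frzb, rose (1.58 ± 0.302, adjusted p = 0.049, edgeR).

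**Figure D5:**
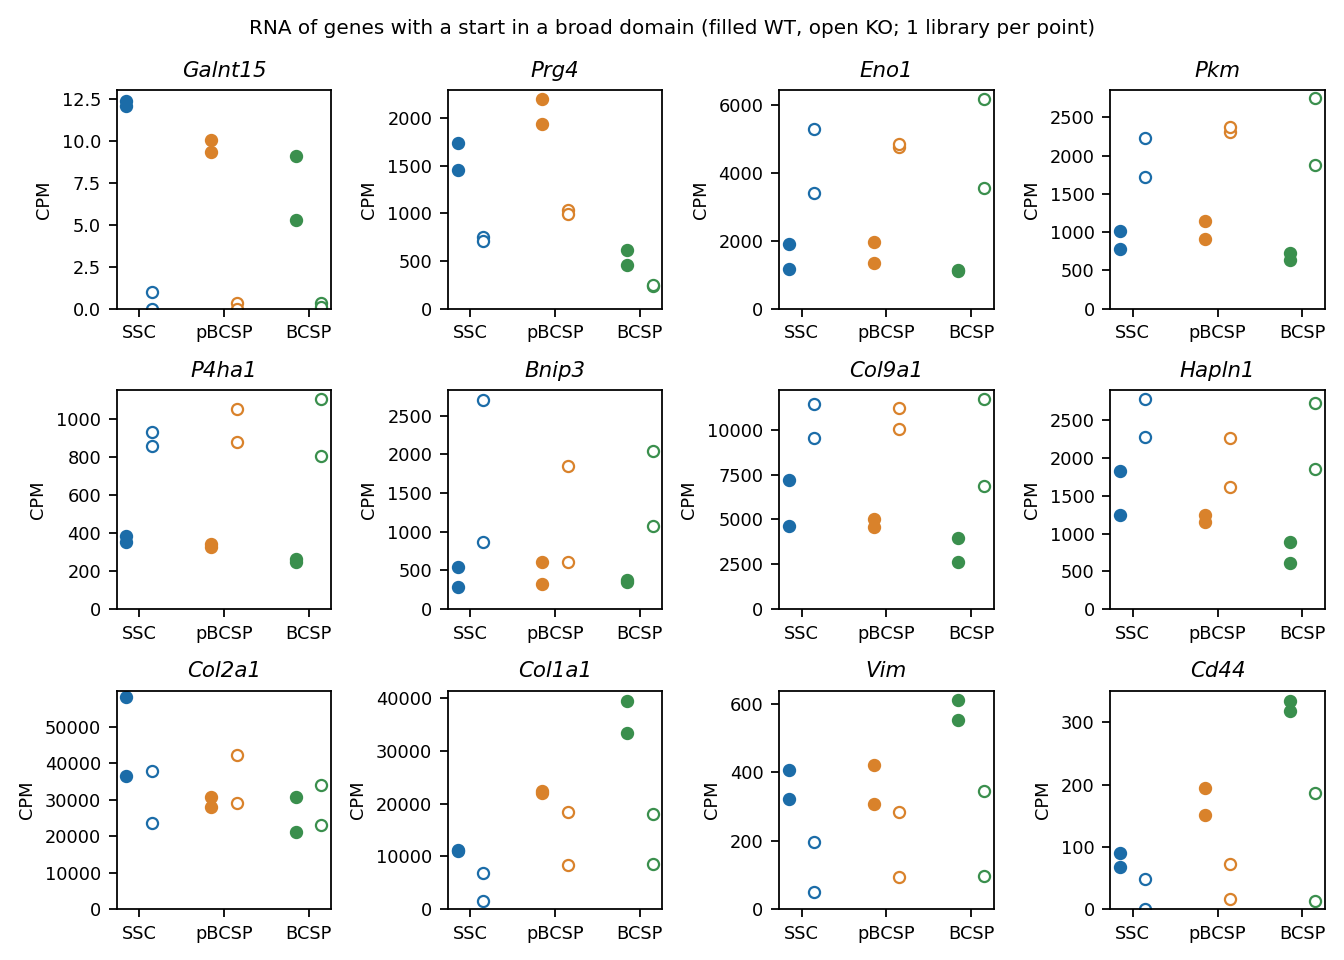
RNA (CPM, y axis starting at 0) of 12 domain genes by population, 1 library per point; filled points are WT and open points KO. Eno1, Pkm, P4ha1 and Bnip3 have all open points above all filled ones, Galnt15 has them below, and for Col1a1, Vim and Cd44 the open points lie below the filled ones of their population.

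None of the 43 limb and mesenchyme transcription factors, 25 Hox genes, 26 BMP and TGF-beta genes, 24 immediate early genes or 6 osteoblast genes in domains passed the test. Medians of the log2 change were -0.604, -0.0885, -0.505, -0.609 and -0.492, against -0.0921 over all genes. For the limb factors, domains were wider in KO in 32 of 43 cases in SSC, 14 in pBCSP and 22 in BCSP, and narrower in 10, 29 and 13. Over all broad domains, 55.3%, 34.1% and 49.5% were wider. Of the genes whose domains gained most cover, Col1a1, Vim and Cd44 had less RNA in KO in each population without passing the test. The median log2 change over all tested domain genes was -0.240. Col1a1 was at 10933 and 11163 CPM in WT SSC and 6816 and 1470 in KO SSC, at 22440 and 21972 against 18476 and 8389 in pBCSP, and at 33420 and 39451 against 18075 and 8481 in BCSP (log2 -1.20 ± 0.387, adjusted p = 0.146, edgeR). Vim (-1.30 ± 0.434, adjusted p = 0.154), Cd44 (-1.79 ± 0.979, adjusted p = 0.341) and Nfib (-0.787, adjusted p = 0.127) were also lower in the mean by edgeR.

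Across the 1398 domains with 1 tested gene, the KO minus WT difference in longest peak had a Spearman rho with the log2 RNA change of -0.074 in SSC, -0.0997 in pBCSP and -0.154 in BCSP. The values between WT populations, given above, were positive. In SSC, 181 domains were at least 1.5-fold wider in KO, and 136 of their genes were below 0 in RNA (median log2 -0.50), against 824 of 1208 in domains that changed less (median -0.32). In pBCSP, 83 domains were at least 1.5-fold narrower, and their genes split into 41 above and 42 below 0 (median -0.00309). Widths rest on 1 library per group, and the domains are not independent replicates.

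Within single populations edgeR called no domain gene between KO and WT. Unadjusted p was below 0.05 for 192 genes in SSC (9.60%, against 9.39% of all genes), 155 in pBCSP (7.75%, against 6.27%) and 195 in BCSP (9.75%, against 6.26%). DESeq2 called 22 higher and 9 lower in SSC, 10 and 3 in pBCSP and 26 and 9 in BCSP. Over all genes it called 134 and 40, 70 and 29, and 95 and 28. A test of whether the KO effect differed between populations called 0 genes by edgeR, with 22 at an unadjusted p below 0.05 (1.10%, against 1.37%), and 0 by DESeq2.

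Other histone marks were read at the same domains. H3K4me1, the mark of enhancers and promoter flanks, overlapped 96.4% of domains in WT SSC, 99.8% in WT pBCSP and 99.7% in WT BCSP. It covered 45.4%, 67.2% and 62.6% of domain bases in WT and 67.2%, 70.7% and 69.6% in KO, with 1 library per group. In other WT H3K4me3 regions the covered share was 45.5%, 71.2% and 64.6% in WT and 71.1%, 75.6% and 74.0% in KO. Cut into 3 equal parts, domains were covered less in the middle than on either side in all 6 libraries, for example 40.9% against 47.8% and 47.6% in WT SSC. Acetylated H3K27, found at active regulatory elements, was profiled in 2 sets of libraries whose peak numbers ran from 137 to 8572. In the first set it overlapped 17.0%, 40.8% and 43.0% of domains in WT and 20.2%, 29.9% and 39.0% in KO. Of other H3K4me3 regions it overlapped 3.49% to 11.2%, but domains are longer, so any overlap is easier to reach there. By bases it covered 2.16%, 7.01% and 7.4% of domains in WT, against 1.39%, 5.15% and 5.62% of other regions. In KO it was 2.63%, 4.66% and 6.67%, against 1.73%, 4.01% and 5.14%. In the second set it overlapped 0.80%, 21.9% and 3.25% in WT and 8.64%, 9.01% and 43.8% in KO, against 0.25% to 11.2% of other regions. By bases it covered 0.0325%, 1.56% and 0.139% of domains in WT, against 0.0498%, 1.01% and 0.124% of other regions. In KO it was 0.544%, 0.518% and 4.7%, against 0.398%, 0.361% and 3.42%. The direction between genotypes differed between the sets in BCSP and was the same in SSC and pBCSP.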

How the data were processed

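RNA was deposited by the authors as raw read counts per gene. Peaks were deposited per library, with a fold enrichment ratio and a −log10 q value for each peak. Build GRCm38 and the tools Bowtie2 2.3.5.1 and MACS2 2.2.6 (peaks), featureCounts 2.0.1 (counts), SAMtools 1.9 and Trim Galore 0.6.6 are listed per the submitters' processing notes, which give no order; the sources used here state neither cutoffs nor controls.

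WT peaks of 4000 bp or more were merged where they shared at least 1 bp. Width was the bases covered within a domain or the longest peak touching it. Genes (2311, of which 2104 matched an Ensembl ID and 2000 were tested) were assigned by RefSeq starts of GRCm38.p6, or by either gene end for the 495 genes whose strand was not in the promoter table. RNA was tested with edgeR 4.0.16 in R 4.3.3 (TMM, filterByExpr, quasi-likelihood, 1 mean per group over 12 libraries), with DESeq2 1.42.0 as the alternative. p-values were adjusted over 17494 genes. Overlaps and tests were checked on simulated data. Domains named were the 10 with the longest WT peak, the 5 with the largest gain and the 5 with the largest loss of covered bases in KO, and up to 5 broad in 1 population. Genes named were those starting there, up to 10 per direction past the threshold in the mean KO effect by log2 size, up to 5 per direction in other contrasts, and up to 4 members per list by longest peak. Others, among them further members of the glycolysis and chondrocyte lists and genes of non-overlapping domains, were chosen after their values were seen. Members and gene lists were chosen with earlier results of these data known. Input libraries were not used. One marker list is not reported here.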

Additional observations from a re-analysis of the deposited data

Results flagged for a closer look

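The median KO minus WT difference in covered bases of the broad domains was 36 bp in SSC and -167 bp in pBCSP, so these populations moved in opposite directions with 1 H3K4me3 library per group. It was 0 bp in BCSP. All WT regions moved the same way, by 42 bp in SSC and -118 bp in pBCSP. By longest peak the domains were longer in KO in SSC (490 bp) and BCSP (173 bp) and shorter in pBCSP (-136 bp). The difference between the populations was not tested.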

How the results depend on the processing

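Domains of 5000 bp or more numbered 969 (285 broad in 1 population, 494 in all 3), and of 3000 bp or more 3896 (939 and 2295). With 50% cover as sharing, 6 were in 1 population and 1831 in all 3. The percent with fewer bases in KO in SSC was 29.5 at 5000 bp, 22.5 by longest peak, 4.39 for domains chosen in KO and 10.7 for those chosen in the other 2 WT populations. In pBCSP it was 61.7 by longest peak and 58.1 chosen in KO, and in BCSP 39.6 at 3000 bp, 35.0 by longest peak, 26.5 chosen in KO and 32.9 chosen in the other WT populations. Domains with all KO below all WT numbered 5 at 5000 bp, 0 chosen in KO and 258 without SSC. With all KO above they numbered 16, 52 at 3000 bp, 132 by longest peak, 263 chosen in KO and 140 without SSC. Over all WT regions the shares were 0.600% below and 2.05% above, 6.86% above by longest peak, and 8.20% and 6.73% without SSC. Requiring 50% cover, WT H3K4me1 marked 43.0%, 84.0% and 77.0% of domains, and H3K27ac 0.0533%, 0.907% and 0.907% in the first set and 0% in the second.

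A mean KO effect over pBCSP and BCSP alone, fitted without the SSC libraries, is another comparison and gave 0 calls. Calls for the mean KO effect over all 3 populations (45) became 351 with no filter on low counts and 238 by DESeq2. Of the 351, 109 were higher and 242 lower, against 859 and 1023 over all genes. The 45 calls became 25 at 5000 bp, 73 at 3000 bp and 28 for domains broad in all 3. The share of calls that were higher in KO was 82.2%, 53.8% by DESeq2 and 31.1% with no filter. Without a filter the counts were 70, 70 and 106 for KO in SSC, pBCSP and BCSP, 13, 22 and 53 for WT pBCSP against SSC, BCSP against pBCSP and BCSP against SSC, and 9 for the KO effect between populations. DESeq2 gave 31, 13 and 35 for KO and 3, 6 and 20 for WT, and the groups compared alone gave 5, 77 and 136 for WT. Leaving out 1 library at a time gave 0 to 786 for the mean KO effect, 0 to 696 for SSC, 0 to 218 between populations and 0 for the others; the highest 3 were without SSC KO replicate 1. The cause was not tested. Of the named genes' alternatives, 354 kept their side of the threshold, 320 lost and 23 gained a call, and none reversed. These counts pool genes with and without a call. The 30 named genes with a call kept it in only 4 to 8 of 17 alternatives each, so every such call was lost more often than kept.

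The labels do not say what a replicate number shares. Same-numbered KO and WT libraries of a population had correlations of deviations of -0.00173, -0.021 and -0.0922. With the replicate number as a block the mean KO effect gave 32 calls and the other contrasts 0. The fit with a block on 6 WT libraries gave 187, 402 and 483 calls.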
